A study of Mus musculus with 59 samples.

Results

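Fragments of messenger RNA and small non-coding RNA were compared between the livers of mice fed a high-fat and a low-fat diet, in small RNA libraries made from unselected liver RNA (called input). The comparison used every input library of this kind, 3 high-fat and 3 low-fat, which are 6 of the 59 libraries of the series. All mice carried the same alleles, which the labels give as FVB.129P2-Cyp3a13tm1Ahs together with the deletion Del(5Cyp3a57-Cyp3a59)1Ahs and the transgene Tg(APOE-CYP3A4)A1Ahs, so by label both diet groups had the targeted Cyp3a13 gene, the deletion across Cyp3a57 to Cyp3a59 and the human CYP3A4 transgene driven by APOE sequence. They were 12 weeks old and had been on their diet for 2 weeks. The series as a whole concerns the labelling and pull-down of RNA from selected cells in liver, plasma and fat, and the input libraries are its unselected reference. Libraries are called high-fat 1 to 3 and low-fat 1 to 3 after their labels, which do not say whether each is 1 animal. The p-values therefore reflect variation among libraries, part of which may be technical.

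A small RNA library of whole tissue holds several kinds of molecule. Some are small by nature, such as microRNAs, which guide repression of messenger RNAs through their seed, transfer RNAs (tRNAs), which carry amino acids to the ribosome, and small nucleolar RNAs (snoRNAs), which guide chemical modification of ribosomal RNA. Others are pieces of longer transcripts. In liver, fat in the diet is known to lower the programme of new fatty acid synthesis, which insulin and carbohydrate drive through the transcription factors SREBP-1c and ChREBP.

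Each library held between 875970 and 3608065 counts, and low-fat 2 was the deepest by far, since the next held 1198447. Messenger RNA genes took 36.8% ± 4.26 of the counts on the high-fat diet and 41.5% ± 4.17 on the low-fat diet (SD, n = 3 each). The 2 mitochondrial ribosomal RNAs took 29.5% ± 4.73 and 26.4% ± 3.13. The mean shares of the small classes were each under 4%, with snoRNA genes at 2.97% and 3.41%, microRNA genes at 2.82% and 2.49%, nuclear tRNA genes at 2.34% and 2.73% and mitochondrial tRNA genes at 2.21% and 2.84%. In none of the 10 classes did the high-fat libraries lie wholly on 1 side of the low-fat libraries, and the exact two-sided permutation p ran from 0.2 to 1 where 3 against 3 libraries cannot go below 0.1. The mRNA share holds Lars2, which alone took 8.42% ± 2.06 and 7.34% ± 0.639 of the counts. The microRNA share is mostly the single gene Mir6236, without which it was 0.506% ± 0.275 and 0.539% ± 0.152.

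**Figure D1:**
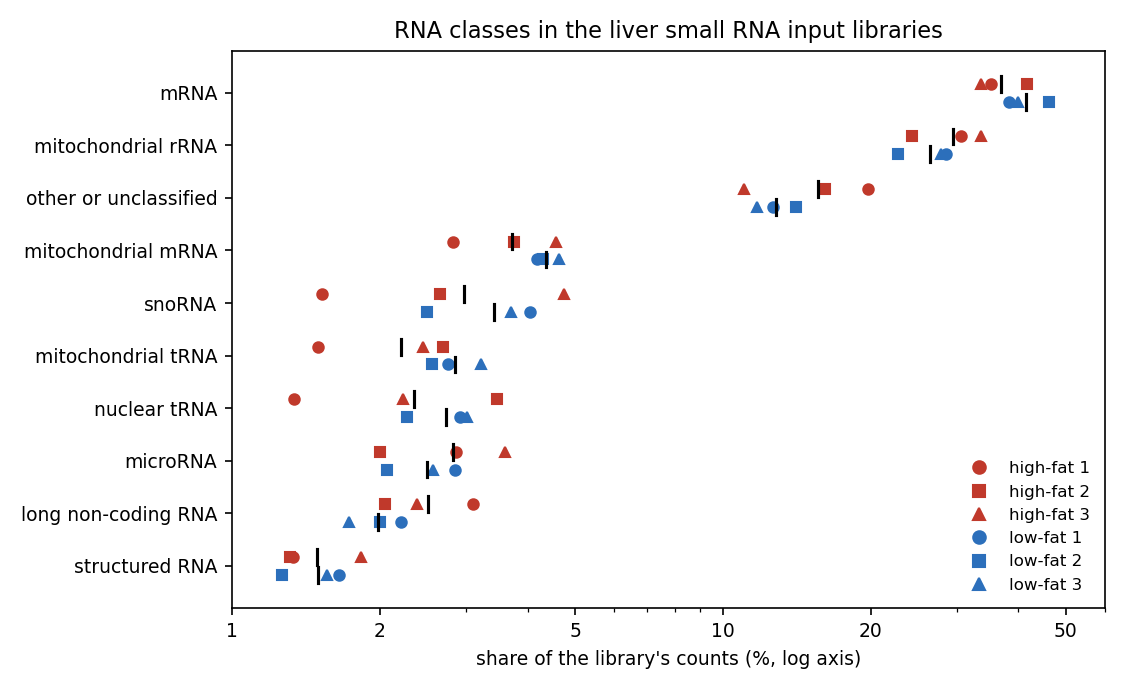
Share of each library's counts (%, log axis) taken by each RNA class, with 1 symbol per library, high-fat in red above and low-fat in blue below, and the mean of 3 as a black bar. High-fat 1 has the lowest nuclear tRNA share, 1.34%, and the lowest snoRNA share, 1.52%, while high-fat 3 has the highest snoRNA share, 4.76%.

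Libraries of the same diet were not alike. High-fat 1 stood apart, with a median correlation of 0.865 to the other libraries against 0.910 to 0.930 for the rest. Xist, the transcript that silences 1 X chromosome in female cells, had 270 to 1895 counts in every library, while the Y-linked genes Ddx3y, Eif2s3y, Kdm5d and Uty had 0 or 1 count each, although the study's design text calls the mice male. The targeted gene Cyp3a13 still received 39 to 162 counts per library. The genes that bound the labelled deletion received 4 to 14 (Cyp3a57) and 10 to 24 (Cyp3a59). Cyp3a11, of the same family, received 6 to 30. Whether these counts go against the label was not tested. Genes of this family are close copies, whose reads the counting could have split. Liver identity was clear, since all 14 hepatocyte markers were tested and Alb, which encodes albumin, took 1.75% to 4.30% of a library's counts. The summed level of 8 adipocyte markers stayed at 1.67 to 5.67 CPM (counts scaled to library size). That of 9 pancreas markers stayed at 0 to 9.57 and that of 8 kidney markers at 0 to 3.34.

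The microRNA sequences below belong to some of the genes with the most counts and to some that the text returns to. Those of Mir122, Mir455 and Mir28a are not shown. Counts were given per gene, so the arm that was sequenced is not known from them, and for genes with 2 arms the arm named is shown. Mature sequences are from RefSeq on GRCm38.p6, written 5′ to 3′, with the seed (bases 2 to 8) in capitals.
mmu-miR-6236: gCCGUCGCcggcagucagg
mmu-let-7g-5p: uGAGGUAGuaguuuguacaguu
mmu-let-7f-5p: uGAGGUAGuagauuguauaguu
mmu-let-7c-5p: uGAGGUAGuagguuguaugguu
mmu-miR-98-5p: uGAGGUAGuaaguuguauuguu
mmu-miR-23a-3p: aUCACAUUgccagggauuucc
mmu-miR-192-5p: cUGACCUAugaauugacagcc
mmu-miR-148a-3p: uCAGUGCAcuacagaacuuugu
mmu-miR-6240: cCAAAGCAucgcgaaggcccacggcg
The 4 members of the let-7 family share the seed GAGGUAG, and none of the other sequences shares a seed with another.

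Across all 5421 features with enough counts, 7 differed between diets (edgeR quasi-likelihood F test, Benjamini-Hochberg adjusted p under 0.05), which is 0.129% of those tested, with 4 higher (0.0738%) and 3 lower (0.0553%) on the high-fat diet. Scd1, which makes oleate from stearate and so the main fatty acid of stored fat, fell furthest. Hamp2, a paralog of the iron hormone hepcidin, and the long non-coding RNA 1810008I18Rik fell too. Egr1, an immediate early transcription factor, rose, as did Chka, which starts phosphatidylcholine synthesis, Cish, a feedback inhibitor of cytokine and growth hormone signalling, and Eif2ak3, which encodes PERK, a sensor of stress in the endoplasmic reticulum. Eif2ak3 and 1810008I18Rik fall outside the rule for named genes and were added after their values were seen. At an unadjusted p under 0.05 there were 516 features, or 9.52%, of which 279 were higher (5.15%) and 237 lower (4.37%). Log2 changes are high-fat minus low-fat with their standard error, and levels are CPM after scaling by the trimmed mean of M-values (TMM CPM).

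Scd1 (chr19:44394450-44407709, mm10) had 515, 263 and 139 TMM CPM in high-fat 1 to 3 against 9073, 11819 and 7718 in low-fat 1 to 3. Every high-fat library was thus far below every low-fat library, and the raw counts behind them were at least 117. The log2 change was -4.96 ± 0.51 (SE, adjusted p = 0.00886 by edgeR). Expressed as a share of the library, Scd1 took 1.00% ± 0.329 of all counts on the low-fat diet and 0.0295% ± 0.0194 on the high-fat diet (SD, n = 3).

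Hamp2 (chr7:30922372-30924181) had 10.7, 16.5 and 36.9 TMM CPM on the high-fat diet against 161, 146 and 346 on the low-fat diet, a log2 change of -3.35 ± 0.49 (adjusted p = 0.0349 by edgeR). Its neighbour Hamp, which encodes hepcidin itself, had 394, 426 and 458 against 304, 479 and 194, and the diets overlapped (log2 change 0.38 ± 0.33, adjusted p = 0.799 by edgeR). The genes are close copies, and how the counting treated reads that match both is not given in the sources used here. 1810008I18Rik (chr7:65803037-65806233) had 3.57, 5.25 and 2.38 TMM CPM against 42.4, 30.2 and 20.4, from 2 to 7 raw counts on the high-fat diet (log2 change -2.96 ± 0.41, adjusted p = 0.0349 by edgeR).

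Egr1 (chr18:34861207-34864956) had 122, 242 and 119 TMM CPM on the high-fat diet and 35.8, 14.97 and 19.3 on the low-fat diet, a log2 change of 2.84 ± 0.41 (adjusted p = 0.0349 by edgeR). Chka (chr19:3851585-3894369) had 162, 99.0 and 70.2 against 15.1, 20.9 and 18.1, a log2 change of 2.57 ± 0.34 (adjusted p = 0.0349 by edgeR). The high-fat libraries of Chka spread more than the low-fat ones but did not reach them. Cish (chr9:107296659-107302784) had 61.8, 42.8 and 44.0 against 14.1, 5.23 and 10.2 (log2 change 2.49 ± 0.38, adjusted p = 0.0390 by edgeR). Eif2ak3 (chr6:70844484-70905241) had 28.5, 25.5 and 20.2 against 6.59, 4.51 and 6.80, from 6 to 34 raw counts (log2 change 2.17 ± 0.32, adjusted p = 0.0349 by edgeR).

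**Figure D2:**
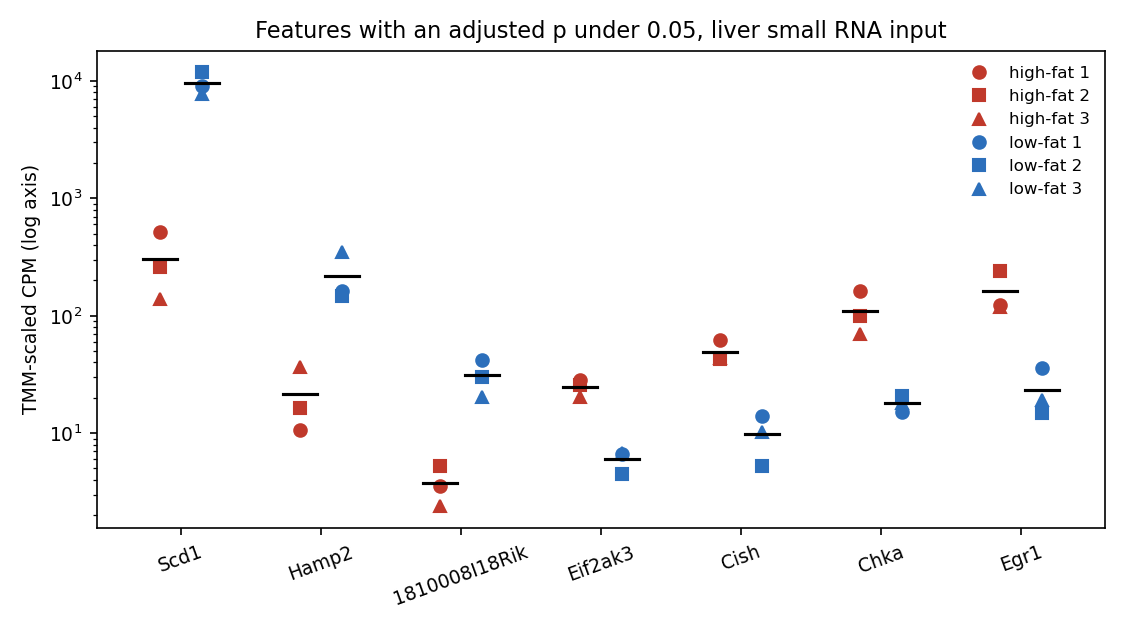
TMM CPM (log axis) of the 7 features with an adjusted p under 0.05, with 1 symbol per library, high-fat in red and low-fat in blue, and the mean of 3 as a black bar. No high-fat symbol reaches the low-fat symbols of the same feature, and the gap is widest for Scd1, from 515 to 7718 TMM CPM.

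The number of calls rested on single libraries, since it was 0 without high-fat 2 (557 features at an unadjusted p under 0.05), 1 without low-fat 1, 1 without low-fat 2, 2 without high-fat 1, 6 without high-fat 3 and 8 without low-fat 3. The direction of the 7 changes did not rest on them. Leaving out any 1 library, the log2 change of Scd1 stayed between -5.58 and -4.63 and only leaving out high-fat 2 ended its call (adjusted p = 0.118 by edgeR). The call of Hamp2 was lost without high-fat 1 or 2 or low-fat 1 or 2 (adjusted p 0.0610 to 0.194 by edgeR). That of Chka was lost without high-fat 2 or any low-fat library (adjusted p 0.0689 to 0.130). The calls of Egr1 (0.0593 to 0.172), Cish (0.0610 to 0.172) and Eif2ak3 (0.0689 to 0.232) were lost without high-fat 1 or 2 or any low-fat library. That of 1810008I18Rik was lost without any library but low-fat 3 (0.0547 to 0.129). Scaling by total counts gave 23 calls, 6 higher and 17 lower, among which were all 7, and moved the median log2 change of all features from 0.02 to -0.16. Scaling from microRNA genes alone kept the call of Scd1 and ended the other 6 (adjusted p from 0.0599 for Hamp2 to 0.9997 by edgeR).

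The promoter of Cish, a gene that STAT5 is known to switch on, is shown because Cish rose and its start region holds 2 copies of the palindrome that STAT proteins bind, TTCNNNGAA. The 300 bases run from 250 before to 50 after the start (chr9:107296409-107296708, plus strand, RefSeq on GRCm38.p6), and the matches, found on both strands and not overlapping, are in capitals.
Cish promoter: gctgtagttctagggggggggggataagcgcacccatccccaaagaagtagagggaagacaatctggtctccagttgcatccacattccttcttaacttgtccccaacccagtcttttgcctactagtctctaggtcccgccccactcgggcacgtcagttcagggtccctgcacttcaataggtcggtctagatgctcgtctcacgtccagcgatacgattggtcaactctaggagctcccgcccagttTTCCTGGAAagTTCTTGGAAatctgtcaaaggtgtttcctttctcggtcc
Of 32851 promoters of this length, 2726 or 8.3% held at least 1 match, so a match by itself is common. No binding was measured here.

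Genes of fatty acid and triglyceride synthesis lay lower on the high-fat diet as a group. Of 32 genes, 26 had enough counts, 1 was called lower (Scd1) and none higher. The diets did not overlap for 15 of them, 14 with all high-fat libraries below and 1 above, where over all features 7.08% lay wholly below and 8.3% wholly above. The log2 change was negative for 24 of the 26, with a median of -0.97 against 0.02 over all features. The uncalled genes named here and in the following groups were picked by their p or role after their values were seen.

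Elovl6, which lengthens palmitate, came next to the threshold, with 13.1, 21.8 and 5.95 TMM CPM against 103, 109 and 52.2 (log2 change -2.64 ± 0.42, adjusted p = 0.0555 by edgeR). Acss2, which makes acetyl-CoA from acetate, had 10.7, 9.003 and 17.8 against 98.0, 108 and 31.8 (-2.72 ± 0.47, adjusted p = 0.0718). Me1, a source of NADPH, had 14.3, 20.3 and 23.8 against 91.4, 84.4 and 43.1 (-1.92 ± 0.34, adjusted p = 0.0718). In these and the next genes low-fat 3 lay below the other low-fat libraries while still above every high-fat library. Fasn, the fatty acid synthase, had 48.7, 60.02 and 13.1 against 252, 281 and 72.6 (-2.30 ± 0.57, adjusted p = 0.168). Acaca, the carboxylase that makes its substrate, had 16.6, 19.5 and 5.95 against 78.2, 65.8 and 37.4 (-2.07 ± 0.40, adjusted p = 0.0965). Acly, which supplies acetyl-CoA from citrate, had 32.1, 27.0 and 22.6 against 147, 153 and 46.5 (-2.10 ± 0.42, adjusted p = 0.111). The regulator Srebf1 itself had 19.02, 33.8 and 7.14 against 41.4, 31.4 and 27.2, and the diets overlapped (-0.67 ± 0.42, adjusted p = 0.692). The gene that lay wholly above was Lpin2, a phosphatidate phosphatase, with 384, 270.1 and 295 against 149, 167 and 159 (1.00 ± 0.25, adjusted p = 0.177).

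Genes of cholesterol synthesis and uptake had negative log2 changes in 18 of 18 tested genes, with a median of -0.52. None was called in either direction, and in 5 (27.8%) all high-fat libraries lay below all low-fat libraries, where 7.08% of all features did. Without low-fat 3 it was 11 of 18 (against 596 of 5421 features) and without high-fat 2 it was 8 (against 12.9%). Tm7sf2 had 20.2, 29.3 and 9.52 TMM CPM against 50.9, 50.1 and 70.3, and Sc5d, like it a late step of the pathway, had 72.5, 99.0 and 91.6 against 241, 256 and 112.

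Genes of the urea cycle and amino acid breakdown lay lower on the high-fat diet as a group. All 24 tested genes, of 25 listed, had a negative log2 change, with a median of -0.98. In 18 of them (75.0%), against 7.08% of all features, every high-fat library lay below every low-fat library. None was called, the smallest adjusted p being 0.0915 for Cbs by edgeR. Cbs, which starts the conversion of homocysteine to cysteine, had 42.8, 51.0 and 34.5 TMM CPM against 107, 125 and 94.1 (log2 change -1.34 ± 0.25). Cth, the next enzyme of that route, had 11.9, 10.5 and 15.5 against 29.2, 58.9 and 30.6 (-1.73 ± 0.36). Gnmt, the methyl group buffer of liver, had 121, 198 and 199.9 against 396, 573 and 463 (-1.46 ± 0.30). Ass1, a urea cycle enzyme, had 105, 165 and 136 against 423, 613 and 252 (-1.67 ± 0.36). The cycle was not lower throughout: Otc had 239, 284 and 303 against 273, 316 and 278 (-0.07 ± 0.25). Low-fat 2, the deepest library, was the highest of the 6 for 22 of the 24 genes, as for Tdo2 at 453 against 141 and 149 in the other low-fat libraries. Without it the median was -0.63, and 18 of the 24 lay wholly below and 1 wholly above, against 11.1% and 12.7% of all features. The part of that library in this group was otherwise not tested.

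The immediate early genes, which respond within minutes to growth factors, stress and handling, lay on the other side. Of 23 genes 13 had enough counts, all 13 had a positive log2 change and 1 was called higher (Egr1). In 9 of the 13 (69.2%), against 8.3% of all features, every high-fat library lay above every low-fat library. The median was 1.14. Klf6 had 170.0, 102 and 117 TMM CPM against 33.0, 27.3 and 52.2 (log2 change 1.82 ± 0.32, adjusted p = 0.0718 by edgeR). Junb had 22.6, 23.3 and 11.9 against 9.42, 6.89 and 9.07, and Dusp1, a phosphatase that ends MAP kinase signals, had 60.6, 69.0 and 60.7 against 21.7, 34.7 and 38.6. Jun had 112, 134 and 78.5 against 50.9, 21.4 and 94.1 and its diets overlapped. Leaving out each library in turn, 9 to 11 of the 13 lay wholly above, against 12.2% to 15.6% of all features, and the median stayed between 1.01 and 1.35. Fos was not tested, with 2, 12 and 4 counts on the high-fat diet and 3, 12 and 3 on the low-fat diet.

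The endoplasmic reticulum list was mixed. Beside Eif2ak3, which was not on it, the transcription factors Xbp1 (63.0, 27.0 and 49.97 TMM CPM against 16.01, 11.6 and 14.7) and Atf4 (134, 99.8 and 108 against 50.9, 40.2 and 59.0) lay wholly above, as did the co-chaperone Dnajb9 (17.8, 15.004 and 14.3 against 6.59, 9.27 and 7.94). The transcription factor Atf6 overlapped between the diets (log2 change -0.06 ± 0.34), as did the secreted protein Manf (0.25 ± 0.38). The chaperone Hspa5 (BiP) overlapped with 128, 113 and 157 against 139, 159.9 and 153, and the chaperone Hsp90b1 lay wholly below with 126, 141 and 153 against 194, 207 and 183. None of the 20 tested genes was called (smallest adjusted p 0.111, Xbp1, by edgeR), and the median was -0.20. Of the 20, 3 lay wholly above and 4 wholly below, where 8.3% and 7.08% of all features lay so. Without high-fat 2, 3 lay wholly above and 7 wholly below, against 15.3% and 12.9% of all features. Low-fat 2 was the highest library for 14 of the 20. Without it, 3 lay wholly above and 4 wholly below, against 12.7% and 11.1%.

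Genes of glucose production and insulin response had a negative log2 change in 14 of 19, with a median of -0.18 and none called. Of the 19, 2 (10.5%) lay wholly above and 5 (26.3%) wholly below. Over all features 8.3% lay wholly above and 7.08% wholly below. Without low-fat 1, 9 (47.4%) lay wholly below, against 11.7% of all features. Low-fat 2 was the highest library for 11 of the 19. Without it, 4 (21.1%) lay wholly above and 5 (26.3%) wholly below, against 12.7% and 11.1%. Trib1, which marks the lipogenic regulator ChREBP and C/EBP-alpha for decay, had 275, 293 and 356 TMM CPM against 98.0, 64.2 and 130.4 (log2 change 1.67 ± 0.31, adjusted p = 0.0874 by edgeR). Irs2, an insulin receptor substrate, had 48.7, 58.5 and 57.1 against 15.1, 24.5 and 35.2. Got1 had 25.0, 28.5 and 32.1 against 76.3, 232 and 59.0, and Pck1, the rate-limiting step of glucose production, overlapped with 464, 604 and 414 against 516, 1280.3 and 889.

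Of 31 genes of fat oxidation and PPAR-alpha response, none was called and 4 (12.9%) lay wholly above, where 8.3% of all features did, with a median of 0.20. This count rested on low-fat 3, the highest library for 12 of the 31, since without it 15 of 31 (48.4%) lay wholly above, against 12.7% of all features. The rate-limiting transporter Cpt1a had a log2 change of -0.09 ± 0.26. Cyp4a14, 1 of the 4, had 225, 205 and 106 TMM CPM against 8.48, 67.0 and 91.9.

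Drug metabolism genes went both ways, with 8 of 42 wholly above, 4 wholly below and none called, where 8.3% and 7.08% of all features lay so. Without high-fat 2, 10 (23.8%) lay wholly below, against 12.9% of all features. Without high-fat 3, 13 (31.0%) lay wholly above, against 15.6%. Cyp2e1, an enzyme of the cells around the central vein, had 1677, 2044 and 2108 TMM CPM against 1053, 692 and 1124 (log2 change 1.02 ± 0.29). Gstm3 had 5.95, 4.50 and 4.76 against 14.1, 20.2 and 13.6 (-1.74 ± 0.35). Cyp2c and Gstm genes are families of close copies, whose reads the counting could have split. None of 37 nuclear-encoded respiratory chain genes lay wholly to either side, and 1 of 47 cytosolic ribosomal protein genes did, with medians of -0.08 and -0.06. Of the respiratory chain, 8 (21.6%) lay wholly below without high-fat 2, against 12.9% of all features. Without high-fat 1, 5 (13.5%) lay wholly above, near the 12.2% of all features. Of the ribosomal proteins 6 (12.8%) lay wholly below without low-fat 2, near the 11.1% of all features.

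No marker of another liver cell type was called. The sums below are scaled to library size only, while the log2 changes use TMM scaling. Endothelial markers had a summed level of 462 to 561 CPM on the high-fat diet and 606 to 686 on the low-fat diet. Of 15 tested, 2 (13.3%) lay wholly below, where 7.08% of all features did, and the median log2 change was -0.11. Macrophage and Kupffer cell markers summed to 292 to 411 and 415 to 659, with a negative log2 change in all 11 tested and a median of -0.28. Of the 11, 1 (9.09%) lay wholly below, against 7.08% of all features. Without high-fat 3 it was 6 (54.5%), against 14.6% of all features. Stellate cell markers summed to 364 to 416 and 388 to 421, with a positive log2 change in 7 of 8 tested and a median of 0.23. Hepatocyte markers summed to 30551 to 53190 and 51458 to 60955. Of 14, 5 (35.7%) lay wholly below and 1 (7.14%) wholly above, against 7.08% and 8.3% of all features. In whole tissue, fewer cells of a type and less RNA per cell cannot be told apart, and the part of these shifts in the groups above was not tested.

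**Figure D3:**
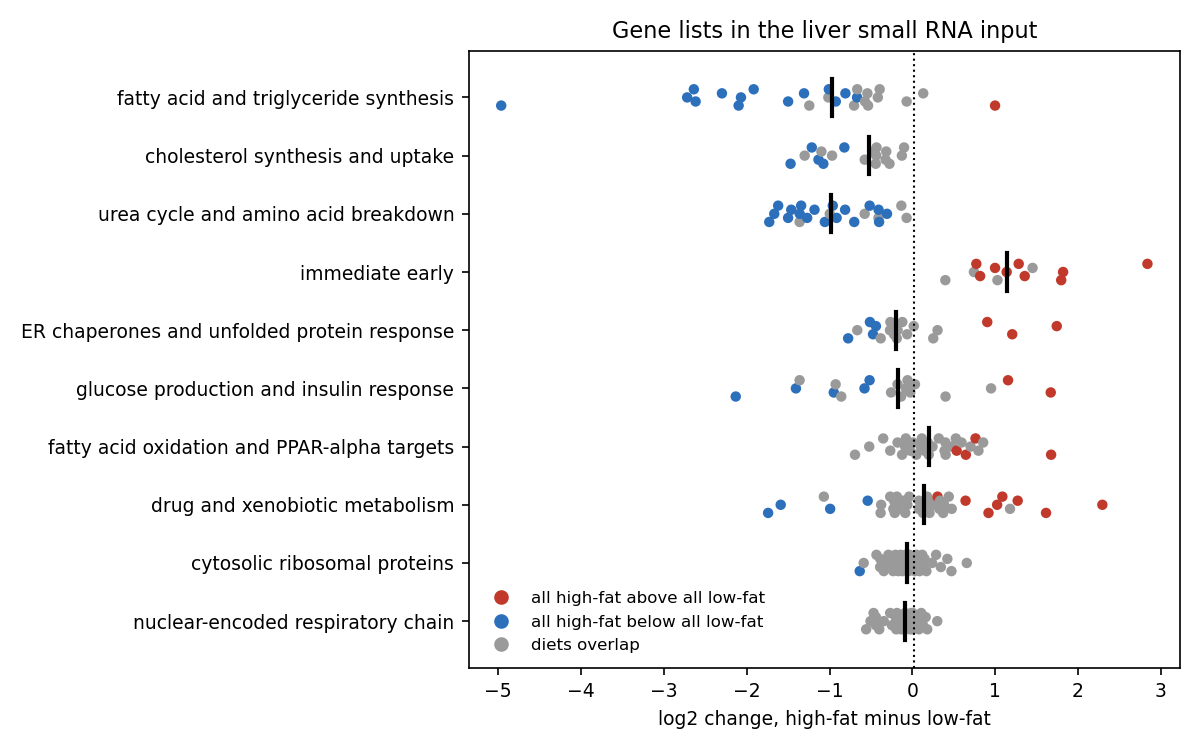
Log2 change (high-fat minus low-fat) of each tested gene in 10 lists, 1 point per gene, coloured where every high-fat library lies above (red) or below (blue) every low-fat library, with the list median as a black bar and the median of all features as a dotted line. The lists of fatty acid synthesis and amino acid breakdown centre near -1, the immediate early genes near 1 and the respiratory chain near 0.

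MicroRNA genes showed no called difference. Of 1194 annotated, 225 had a count in any library and 32 had enough to be tested. Of these, 1 had an unadjusted p under 0.05 by edgeR (3.12%, against 9.52% of all features) and 2 by DESeq2 (against 325 of 5421 features). A single gene, Mir6236, held 80.5% of the microRNA counts, and Mir122, the dominant microRNA of hepatocytes, held 69.7% of the rest. Mir122 had 2057, 2487 and 8117 TMM CPM on the high-fat diet and 5120.0, 2099.8 and 4173 on the low-fat diet, a log2 change of 0.15 ± 0.53 whose 95% interval ran from -1.02 to 1.32. The high-fat libraries thus spread more widely than the diets' means. The median interval over the 32 genes was 1.14 log2 units to each side, against 0.70 for messenger RNA genes.

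Most other microRNAs of the sequences above were also highest in high-fat 3, and their diets overlapped. Mirlet7g had 136, 174 and 457 TMM CPM against 289, 156 and 252 (log2 change 0.14 ± 0.44). Its relatives with the same seed were lower, Mirlet7f-2 at 28.5 to 98.8 over all libraries, Mirlet7c-1 at 15.5 to 69.0 and Mir98 at 3.001 to 22.6, with log2 changes of 0.11, 0.02 and -0.13. Mir192, a liver and gut microRNA, had 48.7, 48.0 and 187 against 119, 64.4 and 115 (-0.07 ± 0.50). Mir148a, which in mouse is known to target the LDL receptor, had 19.02, 27.8 and 70.2 against 42.4, 21.6 and 48.8 (0.10 ± 0.47). Mir23a had 66.6, 88.5 and 212 against 154, 62.3 and 105 (0.20 ± 0.45).

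Mir6240 had 373, 103 and 124 TMM CPM against 102, 84.6 and 74.8, with every high-fat library above the low-fat ones, and a log2 change of 1.19 ± 0.45 (unadjusted p = 0.0235, adjusted p = 0.418 by edgeR). Its level was highest in high-fat 1, the library in which 22 of the 32 microRNA genes were lowest, and without that library the log2 change was 0.35. Mir455 had the largest negative value, with 3.57, 12.0 and 22.6 against 37.7, 13.3 and 36.3 (-1.08 ± 0.56, adjusted p = 0.599), and Mir28a had 5.95, 16.5 and 36.9 against 15.1, 9.50 and 13.6 (0.70 ± 0.51).

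Many microRNAs known in liver were listed at 0 in all 6 libraries, among them Mir21a, Mir22, Mir378a and Mirlet7b, and 8 of the 13 let-7 genes. Over the 8851404 counts of the 6 libraries a count of 0 (at most 3 counts) allows up to 0.339 CPM, for counting error only. How reads that lie in more than 1 gene or map to several places were counted is not given in the sources used here, so a 0 is a statement about this counting and not about the RNA. Mir33, which lies within Srebf2 and restrains cholesterol export, had 2 counts in high-fat 3 and none elsewhere. Mir34a had 2 to 8 counts per library.

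**Figure D4:**
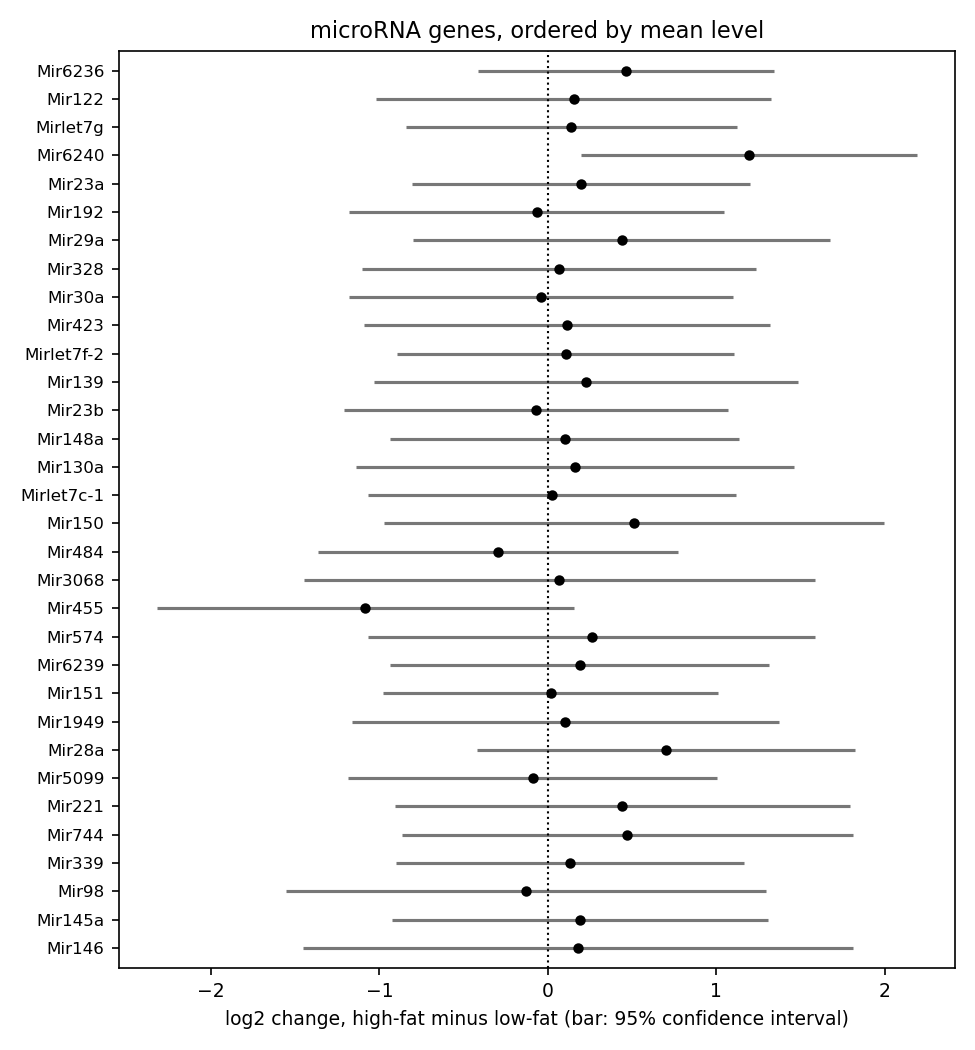
Log2 change (high-fat minus low-fat) of the 32 tested microRNA genes, ordered by mean level from the top, with 95% confidence intervals as bars. All intervals except that of Mir6240 (0.20 to 2.19) cross 0.

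The snoRNA genes gave no call among 127 tested, with a median log2 change of -0.01. At an unadjusted p under 0.05 there was 1 by edgeR (0.787%, against 9.52% of all features) and 1 by DESeq2 (against 325 of 5421 features). Without high-fat 3 the edgeR number for snoRNA genes was 59 of 129. Snord104 had 1893, 3014 and 7146 TMM CPM against 2788, 1399 and 3430.5 (log2 change 0.66 ± 0.50). Snord118, the U8 RNA that is needed to process large-subunit ribosomal RNA, had 1489.8, 1087 and 2619.9 against 2379.6, 1267 and 2228 (-0.18 ± 0.38). Both overlapped between the diets, with high-fat 3 the highest library. Among the Rpl13a introns' snoRNAs, whose levels in tissue respond to lipid stress in mice, Snord32a had 493, 1410.4 and 3952 against 2619.8, 1399 and 2345 (-0.12 ± 0.60). Snord34 and Snord35a had log2 changes of -0.09 ± 0.44 and -0.06 ± 0.53, and Snord33 was listed at 0. The smallest p belonged to Snord73a, with 9.51, 12.8 and 15.5 against 28.3, 19.01 and 35.2, wholly below (-1.05 ± 0.34, adjusted p = 0.307 by edgeR).

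In both short classes single libraries stood at the extremes. High-fat 3 was the highest library for 29 of 32 microRNA genes and 108 of 127 snoRNA genes, and high-fat 1 was the lowest for 22 and 100. Without high-fat 3 the median log2 change of the 5 tested liver-enriched microRNAs was -0.98, against -0.04 with all libraries, and that of the 12 mitochondrial tRNAs was -0.78, against -0.20. A direction for either set therefore rests on that library. So does the number of small p-values. Without high-fat 3, 59 of 129 snoRNA genes had an unadjusted p under 0.05 by edgeR, and none was called. The same held for 7 of 32 microRNA genes and 7 of 12 mitochondrial tRNAs. Over all features it was 698 of 5969.

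Nuclear tRNA genes gave no call among 111. At an unadjusted p under 0.05 there were 3 by edgeR (2.7%, against 9.52% of all features) and 1 by DESeq2 (against 325 of 5421 features). The most abundant, chr11.tRNA945-ArgCCG, had 2433, 7462 and 8575 TMM CPM against 5664, 4373 and 5785 (log2 change 0.22 ± 0.43). The aspartate gene chr10.tRNA866-AspGTC had 2154, 4026 and 2372 against 4314, 3132 and 3296 (-0.33 ± 0.32). High-fat 1 was the lowest library for 75 of the 111. The smallest p was for chr3.tRNA745-GluCTC, with 9.51, 12.0 and 15.5 against 5.65, 4.04 and 5.67, wholly above (1.37 ± 0.36, adjusted p = 0.185 by edgeR). tRNA genes occur in near-identical copies, so the gene a read was given to is uncertain.

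Mitochondrial tRNAs gave no call among 12. At an unadjusted p under 0.05 there were 2 by edgeR (16.7%, against 9.52% of all features) and 2 by DESeq2 (against 325 of 5421 features). mt-Tt, for threonine, had 1163, 1140.3 and 1131 TMM CPM against 2270.3, 1826 and 1799, a log2 change of -0.78 ± 0.26 (adjusted p = 0.342 by edgeR). mt-Te, for glutamate, had 52.3, 17.3 and 25.0 against 67.8, 63.0 and 53.3 (-0.998 ± 0.36, adjusted p = 0.401). These 2 of the 12 (16.7%) lay wholly below, where 7.08% of all features did, and the high-fat values of mt-Tt lay close together. The more abundant mt-Tp had 5617, 8239.6 and 9659.7 against 9187, 7489.6 and 9645 and overlapped. The 7 tested mitochondrial messenger RNAs had log2 changes between -0.06 and 0.04, none at an unadjusted p under 0.05 by edgeR or DESeq2. High-fat 3 was the highest and high-fat 1 the lowest library for all 7. Without high-fat 3 all 7 lay wholly below, where 14.6% of all features did, with a median of -0.42. mt-Rnr2, the large mitochondrial ribosomal RNA, had 167611, 120315 and 265441 TMM CPM against 168389, 105963 and 155218 (0.37 ± 0.40).

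Other structured RNAs overlapped between the diets for the most part. Rn7sk, which holds the elongation factor P-TEFb inactive, had 9764, 5089 and 15596 TMM CPM against 9267, 4942 and 7446 (log2 change 0.49 ± 0.42). The Y RNAs Rny3 and Rny1 had log2 changes of -0.31 ± 0.34 and -0.03 ± 0.39, and none of 29 structured RNA genes was called. At an unadjusted p under 0.05 there was 1 by edgeR (3.45%, against 9.52% of all features) and 1 by DESeq2 (against 325 of 5421 features). Lncpint, a long non-coding RNA induced by p53, had 41.6, 38.3 and 33.3 against 12.2, 22.8 and 17.01, wholly above (1.05 ± 0.28, adjusted p = 0.192 by edgeR).

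The same diets were also compared in the liver mRNA input, 3 libraries per diet made separately. The labels do not say whether they came from the same animals. There 1336 of 10177 features were called (13.1%), 504 higher (4.95%) and 832 lower (8.18%), but this count rests on libraries that resemble each other closely: the counts of high-fat 1 and 3, and of low-fat 2 and 3, differed by 1.18 and 1.13 times the sampling variance, while low-fat 1 differed from its partners by 58.8 to 62.5 times. With each close pair summed into 1 sample no feature was called (1505 at an unadjusted p under 0.05), an alternative added after the data were seen. The mRNA values are therefore given as log2 changes beside those of the fragments.

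Over 4863 mRNA genes tested in both kinds of library, 55.5% had the same sign, and the Pearson correlation across genes, which are not independent replicates, was 0.20. For genes with an unadjusted p under 0.05 in the small RNA input it was 64.7% of 476. Of the 6 called mRNA genes, 5 had the same sign in both. Scd1 had a log2 change of -5.96 ± 0.21 in the mRNA libraries beside -4.96 in the small RNA libraries, and Hamp2 -2.50 ± 0.54 beside -3.35. Egr1 had 0.89 ± 0.16 beside 2.84. Chka had 0.23 ± 0.22 beside 2.57, Eif2ak3 0.51 ± 0.20 beside 2.17, and Cish -0.78 ± 0.26 beside 2.49. These mRNA standard errors treat the close libraries as separate replicates. With each close pair summed they were 0.33 for Scd1, 0.63 for Hamp2 and 0.26 for Egr1. For Chka, Eif2ak3 and Cish they were then 0.33, 0.29 and 0.35. The difference between the kinds of library was not tested.

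By group, each median is over the list members tested in that kind of library, so the 2 medians of a list cover different genes. The fatty acid list had a median of -1.12 in the mRNA libraries (31 genes) beside -0.97 (26 genes). Amino acid breakdown had -0.67 (25 genes) beside -0.98 (24 genes). The immediate early list had -0.48 (20 genes) beside 1.14 (13 genes). Dusp1, which lay wholly above in the small RNA libraries, had 39.7, 40.8 and 42.9 TMM CPM in the high-fat mRNA libraries against 127, 92.4 and 91.2. The endoplasmic reticulum list had 1.08 (26 genes) beside -0.20 (20 genes). Hspa5 shows it, with 2488, 2575 and 2475 TMM CPM against 817, 592 and 586 there, beside a log2 change of -0.19 ± 0.24 in the small RNA libraries.

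**Figure D5:**
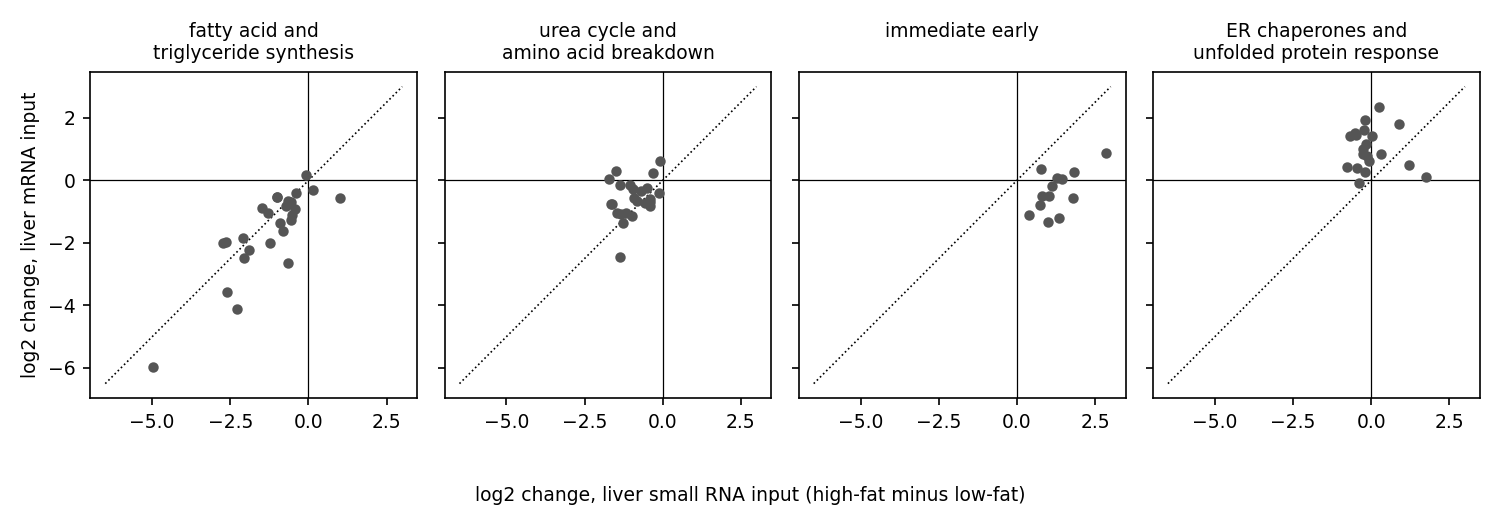
Log2 change (high-fat minus low-fat) of list members in the small RNA libraries (horizontal axis) and in the mRNA libraries (vertical axis), 1 point per gene, with the line of equality dotted. Only genes tested in both kinds of library are plotted. Fatty acid synthesis genes lie mostly below 0 on both axes (horizontal median -0.97). All 13 immediate early genes lie to the right of 0 on the horizontal axis, and the endoplasmic reticulum genes centre near 0 on it.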

How the data were processed

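RNA was extracted from flash-frozen liver with NucleoZOL and made into libraries with a CATS small RNA kit, per the labels' protocols. The authors deposited 1 table of raw counts per library, with 55273 features, 435 of them tRNA genes. The submitters' processing notes name STAR, HTSeq and mm10; no source used here gives versions, annotation, strand or the treatment of multi-mapping reads. The tables held 0 summary rows. Symbols were matched for 54723 of 54838 Ensembl IDs.

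Features passing filterByExpr (minimum count 10, minimum total 15) were tested in the 6 libraries with edgeR 4.0.16 in R 4.3.3 (TMM, quasi-likelihood F test, Benjamini-Hochberg over all features, threshold 0.05), and the fit was tested on simulated data. Class shares were compared with exact permutation tests (scipy). DESeq2 1.42.0, other scalings, other filters, all 11 liver small RNA libraries, a replicate block and leaving out each library were tried.

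Named genes were those called, at or above the median level of their class, without overlap between diets and with no clone name (the largest rises and falls per class), the 3 with the smallest p where fewer of a class passed, up to 4 called members of each list, the 5 most abundant features of each class and a set by name; part of them is printed, and others were added after their values were seen. The members and gene lists were chosen with earlier results of these data known. Lists are described by counts and medians, with no test.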

Additional observations from a re-analysis of the deposited data

How the results depend on the processing

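The count of 7 calls in the small RNA input was 7 under RLE scaling, TMM from protein-coding genes and a minimum of 10 CPM. It was 23 with total counts, 1 with TMM from microRNA genes, 17 with all 11 libraries, 141 without a filter, 52 with DESeq2 (5 of the 7 shared) and 0 to 8 when 1 library was left out. With the replicate block it was 9, 5 of them shared, without Egr1 and Eif2ak3 (adjusted p 0.0809 each by edgeR), although the numbers do not pair the libraries (same-numbered deviations correlated at -0.12, 0.07 and 0.10). In the liver mRNA input the 1336 calls became 9 with the replicate block, 40 to 5547 when 1 library was left out and 0 with the closest pairs summed; Snord118 reversed there without low-fat 1 (log2 change 1.48, with -3.56 as the lowest value when 1 library was left out), and the cause was not tested.

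Other medians moved as follows, by more than 1 SD of the list's median level between libraries of 1 diet. With total counts the endoplasmic reticulum list was at -0.37, drug metabolism at 0.0132, secreted plasma proteins at -0.23, acute phase at -0.55 and hepatocyte markers at -0.57. With TMM from microRNA genes the endoplasmic reticulum list was at -0.10, fat oxidation at 0.44, lipid droplets at 0.31, secreted plasma proteins at 0.0544 and the clock at 0.32. Without a filter lipid droplets were at -0.20 and glucose production at -0.585. Leaving out 1 library, medians ran from -0.27 to -0.11 (endoplasmic reticulum), -0.49 to 0.10 (acute phase), -1.10 to -0.63 (amino acid breakdown), -0.42 to 0.13 (mitochondrial mRNA), -0.78 to 0.0816 (mitochondrial tRNA), -0.98 to 0.32 (liver-enriched microRNA) and -0.58 to 0.74 (lipid microRNA). Without the 10 most abundant features the mRNA share differed by 0.108 percentage points, with or without Lars2, and the structured RNA share by 0.561. The lists of fatty acid synthesis, cholesterol, amino acid breakdown and immediate early genes kept the sign of their median under every alternative run. Counts limit what can be said of microRNAs, since 32 of 1194 genes had enough to be tested and 969 had none; the cause of the zeros was not tested.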

Other observations

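Several acute phase genes, which hepatocytes make in inflammation, were high in single libraries. Low-fat 2 had 71.8 TMM CPM of Saa1 where the other libraries had 3.77 to 21.5, and 70.8 of Lcn2 where they had 5.95 to 21.4. Mt1, a metallothionein, was high in 1 library of each diet, at 621 in high-fat 3 and 605 in low-fat 2, and between 157 and 282 in the others. Orm1 lay wholly below on the high-fat diet, with 46.4, 69.0 and 44.0 against 133, 198 and 107 (log2 change -1.45 ± 0.31, adjusted p = 0.118 by edgeR). Nfil3, a repressor of clock output genes, lay wholly above with 25.0, 28.5 and 16.7 against 3.77, 11.6 and 4.54 (1.54 ± 0.41, adjusted p = 0.182 by edgeR).

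CT010467.1, an unclassified feature, took 14.1% ± 4.35 of the counts on the high-fat diet and 10.96% ± 0.911 on the low-fat diet (SD, n = 3). Gm23935 had 28202 counts in low-fat 2 and 810 to 2521 in the others.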
